A study of Saccharomyces cerevisiae with 4 samples.

Results

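The genes described here are 55 factors that assemble ribosomes in budding yeast, taken by name from a table of 5371 open reading frames (ORFs). All 55 were in the table. They were grouped because a list of such genes had shown higher ribosome footprint values in 1 *dbp1Δ* library than in the other, so the difference between those 2 libraries chose the list and is given below as a description, with no test. Ribosome profiling, which sequences the mRNA fragments that ribosomes protect, was done on diploid cells of the SK1 strain, taken 6 h into SPO, the potassium acetate medium in which this strain enters meiosis. Cells of both genotypes were treated briefly with cycloheximide before they were frozen. There were 2 libraries of wild-type cells and 2 of cells that lacked the *DBP1* ORF, which had been cut out with Cas9 without leaving a marker. *DBP1* encodes a DEAD-box RNA helicase, and the labels give no other difference between the groups. The values are RPKM, footprint reads per kilobase of ORF, scaled to the mapped reads of the library. A footprint level combines how much mRNA is present with how heavily it is translated. mRNA values of these cells were not analysed here, so these components cannot be told apart. Nor can the share of cells at a given stage be told apart from the level per cell, because each library is a bulk culture.

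Yeast ribosomes are put together in the nucleolus. RNA polymerase I makes a long precursor rRNA, small nucleolar ribonucleoproteins (snoRNPs) modify it, and a large particle called the small-subunit processome folds and cleaves its 5′ part while other factors build the large subunit on its 3′ part. RNA helicases and GTPases drive the remodelling steps between these stages. The genes for these factors are known for being switched on and off together with growth conditions, and for being low in cells that have been starved to enter meiosis.

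The depth recovered from the steps of the RPKM values was 5294776 reads in wild-type replicate 1 and 4619156 in replicate 2, against 5789191 and 4971124 reads in the *dbp1Δ* pair. Below, values of a pair are given with replicate 1 first. *DBP1* itself was at 164 and 147 RPKM in the wild-type pair against 0.578 and 0.449 RPKM in the *dbp1Δ* pair, so its footprints were nearly gone from both libraries labelled *dbp1Δ*. The cells carried footprints of meiotic genes in all 4 libraries. The 14 markers of early meiosis ranged upward from 48.1 RPKM and the 14 markers of middle meiosis from 489 RPKM, with none listed at 0. The biogenesis factors were low beside this. The median member was at 4.93 and 6.08 RPKM in the wild-type pair against 9.25 and 4.37 RPKM in the *dbp1Δ* pair, where the median tested ORF lay between 32.6 and 33.8 RPKM in every library. To be tested, an ORF had to average 1 RPKM or more across the libraries, and 5338 ORFs did. Of the 55 members, 54 were tested and *DIP2* was not. The reads could be recovered as whole numbers in all 4 libraries for 47 members, and these held from 6 to 1058 reads per library, with a median of 43. For 18 of the 47, at least 1 library held fewer than 20 reads, so counting error is large for the lowest members.

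Among the 4 libraries, *dbp1Δ* replicate 1 stood apart for these genes. Over the 54 tested members the median log2 ratio of *dbp1Δ* replicate 1 to *dbp1Δ* replicate 2, on values of RPKM + 0.5, was 0.78, against 0.05 over all tested ORFs. In replicate 1, 51 of 54 members were higher than in replicate 2 (54.4% of all tested ORFs were), and 20 were higher by 2-fold or more (3.15% of all tested ORFs were). Of the 54 ratios, 32 were in the highest 10% of all tested ORFs. Since the list was chosen on this difference, these counts describe it and support nothing further. The members with whole reads took 1067 reads per 1000000 in *dbp1Δ* replicate 1 (exact Clopper-Pearson 95% interval 1041 to 1094) and 783 in *dbp1Δ* replicate 2 (758 to 807). In wild type they took 788 (764 to 812) in replicate 1 and 900.2 (873 to 928) in replicate 2. These intervals cover counting error only, and reads without molecular identifiers are not independent molecules. For 25 of 46 members with whole reads that were tested, the counting interval of *dbp1Δ* replicate 1 lay wholly above that of replicate 2. For none of these 46 did it lie below. The shares of tested ORFs with recovered reads were 21.1% above and 18.9% below, and these also include ORFs whose reads were not whole. Of the members left out for that reason, *NOP1*, *NSR1* and *HAS1* had approximate intervals above and *DRS1* below.

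**Figure D1:**
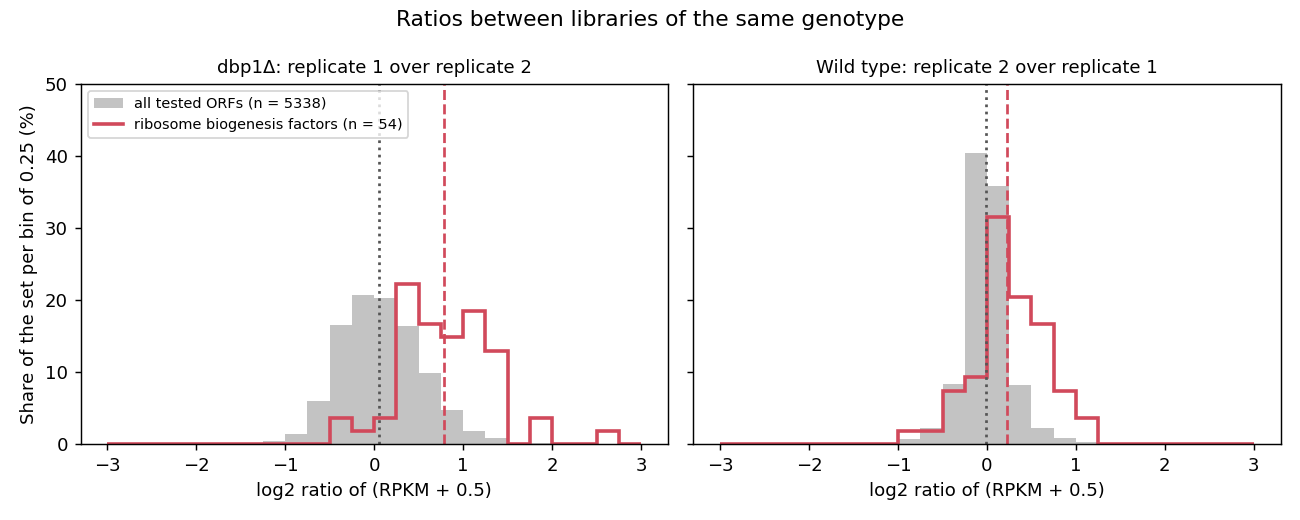
Distribution of log2 ratios of (RPKM + 0.5) between libraries of one genotype, for the 54 tested ribosome biogenesis factors (red outline) and all 5338 tested ORFs (grey), as a percentage of each set per bin; dashed and dotted lines mark the medians. The members are centred at 0.78 in the *dbp1Δ* pair and at 0.23 in the wild-type pair, while all ORFs are centred near 0 in both.

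The 3 members from box C/D snoRNPs, which guide 2′-O-methylation of rRNA, showed this clearly. *NOP58* (YOR310C), a core protein of these particles, was at 4.09 and 6.60 RPKM in the wild-type pair against 16.4 and 3.82 RPKM in the *dbp1Δ* pair. Its partner *NOP56* (YLR197W) was at 20.8 and 31.1 RPKM in the wild-type pair against 35.9 and 21.4 RPKM in the *dbp1Δ* pair. *NOP1* (YDL014W), the methyltransferase known as fibrillarin in animals, is given here as the remaining member of this group. It was at 7.41 and 11.4 RPKM in the wild-type pair against 25 and 10.1 RPKM in the *dbp1Δ* pair. All 3 were highest in *dbp1Δ* replicate 1, with log2 ratios to replicate 2 of 1.97, 0.73 and 1.26 in that order. For *NOP56* the order of the libraries put wild-type replicate 2 close to *dbp1Δ* replicate 1 and wild-type replicate 1 close to *dbp1Δ* replicate 2.

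The 4 core proteins of box H/ACA snoRNPs, which guide pseudouridylation, were also all highest in *dbp1Δ* replicate 1. Their median log2 ratio to replicate 2 was smaller, 0.50 against 1.26 for the box C/D members described here, though single ratios overlapped. The small core protein *NOP10* (YHR072W-A) was the highest of them, at 58.1 and 79.6 RPKM in the wild-type pair against 93.0 and 67.1 RPKM in the *dbp1Δ* pair. *NHP2* (YDL208W), another core protein, was at 47.3 and 50.6 RPKM in the wild-type pair against 63 and 47.5 RPKM in the *dbp1Δ* pair, with the smallest ratio of the *dbp1Δ* libraries in the group, 0.41 on the log2 scale. The pseudouridine synthase *CBF5* (YLR175W), the catalytic subunit, was at 3.26 and 6.22 RPKM in the wild-type pair against 9.31 and 4.48 RPKM in the *dbp1Δ* pair and had the largest, 0.98. *CBF5* was thus the lowest of the 4 subunits in wild type and the one whose *dbp1Δ* libraries were furthest apart. The fourth, *GAR1* (YHR089C), is described with the comparison of genotypes.

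UtpA and UtpB are the subcomplexes that load early onto the precursor rRNA and seed the small-subunit processome. The 7 UtpA subunits were all low, between 1.21 and 6.28 RPKM in the wild-type mean, and all 7 were highest in *dbp1Δ* replicate 1. *UTP10* (YJL109C), the highest in wild type, was at 5.43 and 7.13 RPKM in the wild-type pair against 10.3 and 4.33 RPKM in the *dbp1Δ* pair. *NAN1* (YPL126W), with the largest ratio of the *dbp1Δ* libraries in the group (1.37), was at 3.09 and 2.72 RPKM in the wild-type pair against 5.12 and 1.68 RPKM in the *dbp1Δ* pair. *UTP9* (YHR196W), with the smallest (0.35), was at 2.83 and 2.86 RPKM in the wild-type pair against 2.90 and 2.17 RPKM in the *dbp1Δ* pair. The 3 other libraries of *UTP9* lay within a fraction of an RPKM of each other, and only *dbp1Δ* replicate 2 was lower.

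UtpB held 1 subunit unlike the rest. *UTP18* (YJL069C) was at 34.9 and 34.5 RPKM in the wild-type pair against 31.8 and 38.2 RPKM in the *dbp1Δ* pair, so it ran against its group, with a log2 ratio of the *dbp1Δ* libraries of -0.26. The 5 other UtpB subunits lay between 0.707 and 3.38 RPKM in the wild-type mean, and the 6 spanned a 49.1-fold range, although RPKM is already divided by ORF length. *UTP13* (YLR222C) was at 0.789 and 1.27 RPKM in the wild-type pair against 3.32 and 0.588 RPKM in the *dbp1Δ* pair, with the largest ratio in UtpB, 1.81. *UTP6* (YDR449C) was at 2.39 and 2.57 RPKM in the wild-type pair against 2.74 and 1.11 RPKM in the *dbp1Δ* pair. The lowest library was *dbp1Δ* replicate 2, on 7 reads, and its counting interval overlapped those of the other libraries. *DIP2* (YLR129W), below the level required for a test, was at 0.477 and 0.937 RPKM in the wild-type pair against 1.62 and 0.653 RPKM in the *dbp1Δ* pair and followed the order of most members.

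The 8 further proteins of the small-subunit processome included the member with the largest difference of all. *NSR1* (YGR159C), a nucleolar protein related to animal nucleolin, was at 1.86 and 4.43 RPKM in the wild-type pair against 19.1 and 2.64 RPKM in the *dbp1Δ* pair. Its log2 ratio of the *dbp1Δ* libraries was 2.64, and its wild-type libraries also differed, with replicate 2 higher by 1.07 on the log2 scale. *MPP10* (YJR002W), the central subunit of the complex it forms with *IMP3* and *IMP4*, was the highest of the 8 in wild type, at 45.2 and 48.2 RPKM in the wild-type pair against 54.2 and 45.2 RPKM in the *dbp1Δ* pair, and its 4 libraries lay close together. The 3 subunits of that complex were unequal in level and in spread. *IMP3* (YHR148W), named after its values were seen, was far below *MPP10*, at 5.37 and 6.16 RPKM in the wild-type pair against 11.6 and 4.09 RPKM in the *dbp1Δ* pair, and its *dbp1Δ* libraries differed by 1.40 on the log2 scale against 0.26 for *MPP10*. *IMP4*, *SOF1*, *NOP14*, *NOC4* and *RRP5* had ratios of 0.48, 1.25, 0.72, 0.80 and 0.90.

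**Figure D2:**
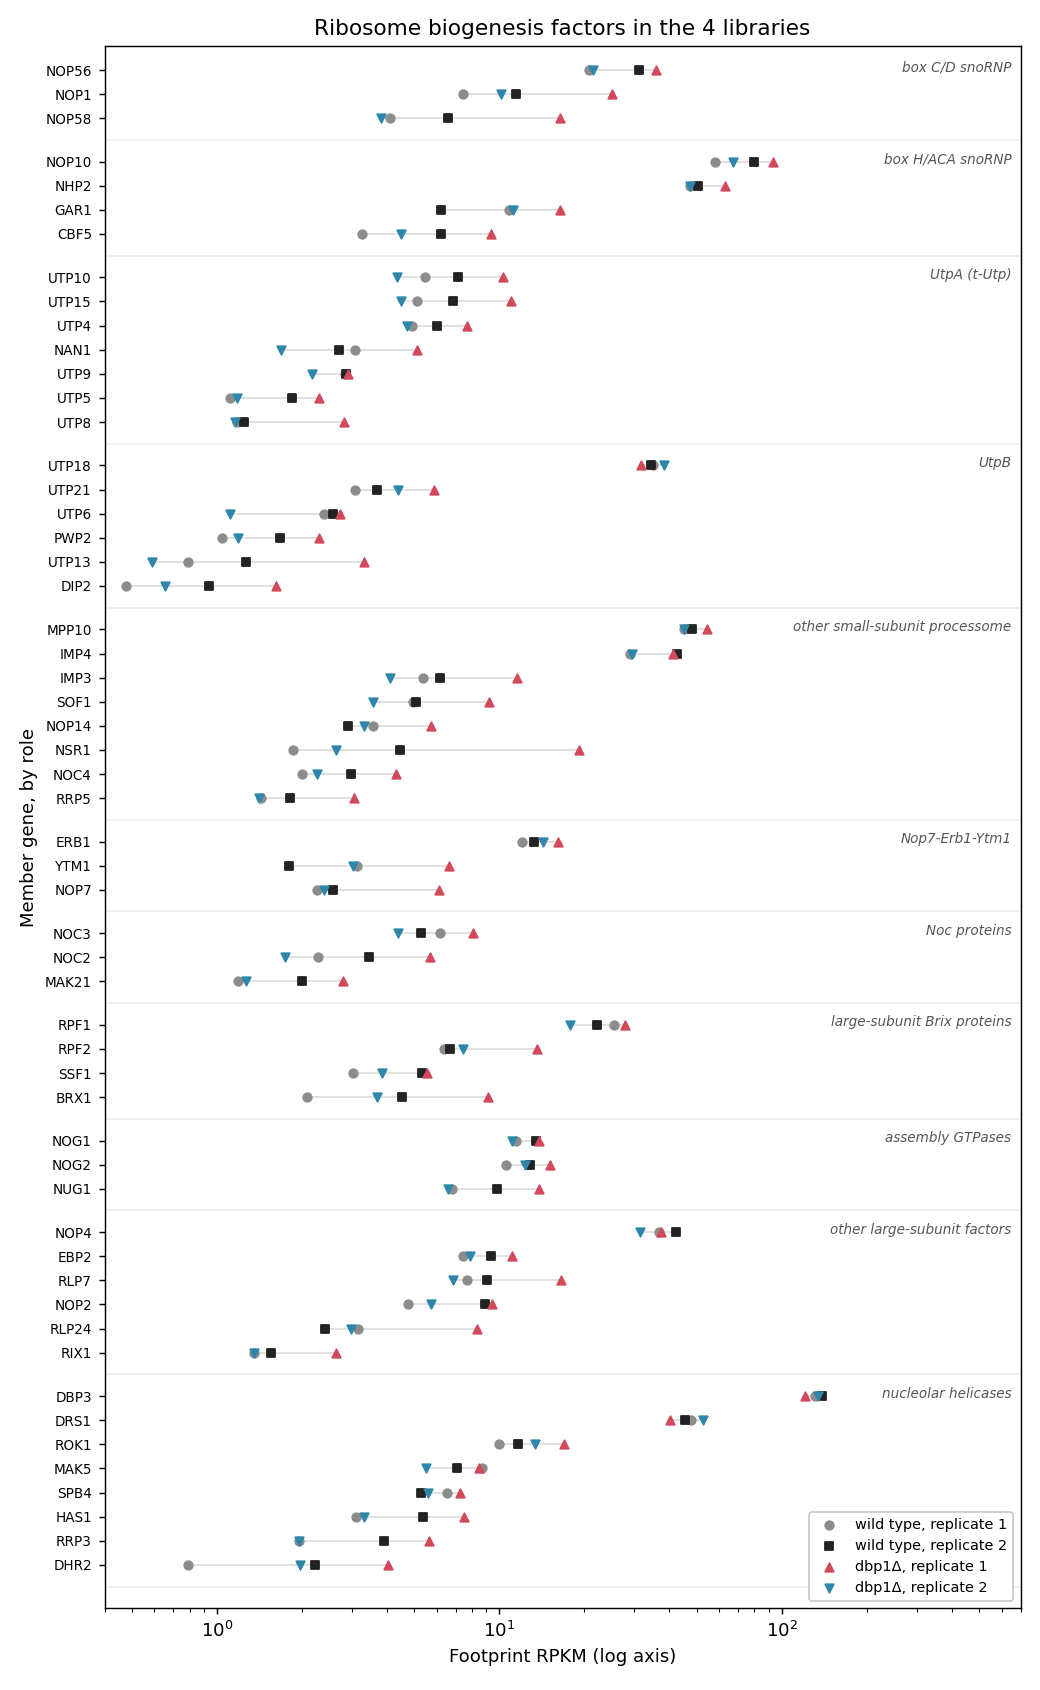
Footprint RPKM of all 55 members (log axis) in the 4 libraries, 1 row per gene, arranged by role and, within a role, by mean wild-type RPKM; grey lines join the lowest and highest library. The red triangles of *dbp1Δ* replicate 1 lie furthest right for 48 of the 54 tested members, and 5 of the 6 exceptions, such as *DBP3* and *UTP18*, are among the 8 members at 30 RPKM or more in wild type.

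On the large-subunit side, the complex of *NOP7*, *ERB1* and *YTM1* acts in maturation of the large-subunit rRNA. *ERB1* (YMR049C) was its highest member, at 12 and 13.3 RPKM in the wild-type pair against 16.1 and 14.3 RPKM in the *dbp1Δ* pair, with a small spread. *NOP7* (YGR103W) was at 2.26 and 2.59 RPKM in the wild-type pair against 6.09 and 2.40 RPKM in the *dbp1Δ* pair, so 3 libraries lay together and *dbp1Δ* replicate 1 was above them. Their log2 ratios of the *dbp1Δ* libraries were 0.16 and 1.18, and that of *YTM1* was 1.0. The Noc proteins travel with pre-ribosomes from nucleolus to nucleoplasm. *NOC2* (YOR206W) was at 2.28 and 3.45 RPKM in the wild-type pair against 5.67 and 1.75 RPKM in the *dbp1Δ* pair, and *NOC3* (YLR002C) at 6.16 and 5.27 RPKM in the wild-type pair against 8.05 and 4.37 RPKM in the *dbp1Δ* pair. *MAK21*, the gene for Noc1, lay between them in the log2 ratio, with 0.90 against 1.46 for *NOC2* and 0.81 for *NOC3*.

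The 4 Brix-domain proteins grouped here act in large-subunit assembly, while *IMP4*, given above, has a Brix domain but belongs to the small-subunit processome. *RPF1* (YHR088W) was the highest of the 4 in wild type, at 25.5 and 22.2 RPKM in the wild-type pair against 28.0 and 17.7 RPKM in the *dbp1Δ* pair. *BRX1* (YOL077C) was at 2.08 and 4.51 RPKM in the wild-type pair against 9.10 and 3.70 RPKM in the *dbp1Δ* pair and had the largest ratio of the *dbp1Δ* libraries in this group, 1.19. *SSF1* (YHR066W) was at 3.04 and 5.31 RPKM in the wild-type pair against 5.56 and 3.85 RPKM in the *dbp1Δ* pair and had the smallest, 0.48. *SSF1* has a near-identical copy, *SSF2*, and how reads shared by the pair were counted is not given in the sources used here, so its level is uncertain. Among the GTPases that act on the large-subunit precursor, *NOG1* (YPL093W) was at 11.4 and 13.4 RPKM in the wild-type pair against 13.8 and 11.1 RPKM in the *dbp1Δ* pair and *NOG2* (YNR053C) at 10.5 and 12.8 RPKM in the wild-type pair against 15.2 and 12.3 RPKM in the *dbp1Δ* pair. *NUG1* (YER006W) started lower in wild type and had the widest gap between *dbp1Δ* libraries of the 3, at 6.79 and 9.79 RPKM in the wild-type pair against 13.8 and 6.56 RPKM in the *dbp1Δ* pair.

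The other large-subunit factors again split by level. *NOP4* (YPL043W), an RNA-binding protein of early large-subunit particles, was at 36.8 and 42.3 RPKM in the wild-type pair against 37.4 and 31.5 RPKM in the *dbp1Δ* pair, and its highest library was wild type. *RLP24* (YLR009W), which holds the place later taken by a ribosomal protein, was at 3.15 and 2.41 RPKM in the wild-type pair against 8.32 and 2.98 RPKM in the *dbp1Δ* pair. Its *dbp1Δ* replicate 1 value lay above those of the 3 other libraries, which were near each other. Its reads were few, 9 and 6 in the wild-type pair against 26 and 8 in the *dbp1Δ* pair, and the counting intervals of the *dbp1Δ* libraries overlapped. *RLP7*, *NOP2*, *EBP2* and *RIX1* lay between *RLP24* and *NOP4* in the ratio of the *dbp1Δ* libraries, at 1.21, 0.68, 0.46 and 0.76 on the log2 scale.

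The 8 nucleolar RNA helicases included the member with the highest level. *DBP3* (YGL078C), a DEAD-box helicase of large-subunit assembly, was the highest of all 55 members, at 132 and 138 RPKM in the wild-type pair against 121 and 134 RPKM in the *dbp1Δ* pair. *DRS1* (YLL008W), another large-subunit helicase, was at 47.5 and 45.4 RPKM in the wild-type pair against 40.1 and 52.5 RPKM in the *dbp1Δ* pair. Both were lowest in *dbp1Δ* replicate 1, with log2 ratios to replicate 2 of -0.15 and -0.39, and with *UTP18* they were the only 3 tested members on that side of 0. *RRP3* (YHR065C), a helicase of the small-subunit pathway, was at 1.96 and 3.89 RPKM in the wild-type pair against 5.61 and 1.95 RPKM in the *dbp1Δ* pair and had the largest ratio of the group, 1.32. *DHR2* (YKL078W) is a DEAH-box helicase of the same pathway. It was at 0.791 and 2.22 RPKM in the wild-type pair against 4.02 and 1.97 RPKM in the *dbp1Δ* pair. The lowest library was wild-type replicate 1, on 9 reads. *MAK5* (YBR142W) was at 8.65 and 7.05 RPKM in the wild-type pair against 8.44 and 5.49 RPKM in the *dbp1Δ* pair, where *dbp1Δ* replicate 1 lay between the wild-type values. *SPB4* and *HAS1* had ratios of 0.35 and 1.06.

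The ratio of the *dbp1Δ* libraries was smaller for members with a higher level in wild type. Members were grouped by their mean wild-type RPKM, which does not enter the ratio. The 17 tested members from 1 to 3 RPKM had a median log2 ratio of 1.0, and the 23 from 3 to 10 RPKM had 0.98. The 6 from 10 to 30 RPKM (*ROK1*, *RPF1*, *ERB1*, *NOG2*, *NOG1* and *NOP56*) had 0.31, and the 8 at 30 RPKM or more had 0.25. The 8 were *MPP10*, *NOP4*, *NOP10*, *NHP2*, *DBP3*, *IMP4*, *UTP18* and *DRS1*, which come from 5 of the role groups. All tested ORFs in the same ranges of level had medians of 0.34, 0.31, 0.14 and -0.08. The members lay above them in each range, but this is the ratio on which the list was chosen. Spearman's rho between wild-type level and ratio was -0.57 over the 54 members and -0.31 over all 5338 tested ORFs. It is given as a description, since genes measured in the same libraries are not independent replicates and low values carry more counting error.

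**Figure D3:**
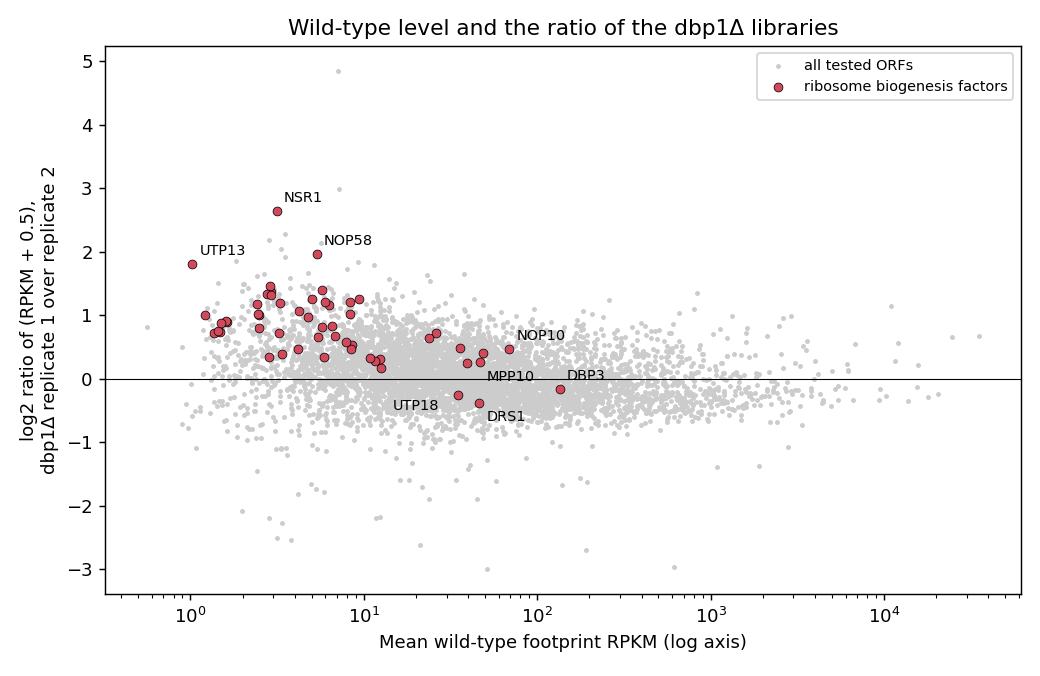
Log2 ratio of (RPKM + 0.5) in *dbp1Δ* replicate 1 over replicate 2 against mean wild-type RPKM (log axis) for all tested ORFs (grey) and the 54 tested members (red). The members below 10 RPKM lie between 0.35 and 2.64, and those at 30 RPKM or more lie between -0.39 and 0.48.

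The wild-type libraries did not agree on these genes either. The choice of the list rested on the *dbp1Δ* pair and not on this one. Wild-type replicate 2 was above replicate 1 for 43 of the 54 tested members (47.8% of all tested ORFs), with a median log2 ratio of 0.23 (-0.01 over all tested ORFs). The gap was small for most. It reached 2-fold for 2 members, *NSR1* and *DHR2* (0.487% of all tested ORFs), and for 3 of 46 members with whole reads, *NOP56*, *IMP4* and *NOP2*, the counting interval of replicate 2 lay above that of replicate 1 (3.33% of tested ORFs with recovered reads). None had it below (3.69%). *NOP2* (YNL061W), an rRNA methyltransferase, and *IMP4* (YNL075W) were named for this after their values were seen. *NOP2* was at 4.73 and 8.91 RPKM in the wild-type pair against 9.42 and 5.71 RPKM in the *dbp1Δ* pair, and *IMP4* at 29.0 and 42.6 RPKM in the wild-type pair against 41.2 and 29.4 RPKM in the *dbp1Δ* pair. In both, wild-type replicate 2 was near *dbp1Δ* replicate 1 and wild-type replicate 1 near *dbp1Δ* replicate 2. The log2 ratios of the 2 pairs went together weakly, with Pearson's r of 0.35 and Spearman's rho of 0.31 over the 54 members. Without *NSR1* they were 0.26 and 0.27, against 0.14 and 0.06 over all tested ORFs. Both ratios had their smallest median in members at 30 RPKM or more in wild type (0.25 and 0.09), and level was not taken out of these correlations. The pairs share no library, but all points of a pair share its depths.

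Set side by side, *dbp1Δ* replicate 2 was nearer to wild type than *dbp1Δ* replicate 1 for these genes. The list was chosen on the difference between these libraries, so this order is a description. The median log2 ratio of *dbp1Δ* replicate 2 to the wild-type mean was -0.12 (-0.04 over all tested ORFs), and to wild-type replicate 1 alone it was 0.0025. *dbp1Δ* replicate 2 lay between the wild-type values for 25 of 54 members (28.8% of all tested ORFs). The wild-type libraries were themselves further apart for the members (median absolute log2 ratio 0.28 against 0.12 over all tested ORFs), which leaves more room between them. Few genes of any kind were 2-fold apart between *dbp1Δ* replicate 2 and wild type, with 0 members apart from replicate 1 (0.768% of all tested ORFs) and 0 from replicate 2 (1.48%), so these counts set the members apart from nothing. *dbp1Δ* replicate 1 had a median log2 ratio to the wild-type mean of 0.68 (0.00 over all tested ORFs) and was 2-fold apart from wild-type replicate 1 for 16 members (2.98% of all tested ORFs) and from wild-type replicate 2 for 8 (2.74%). The list was chosen on the difference between this library and *dbp1Δ* replicate 2. *dbp1Δ* replicate 1 was the highest of the 4 libraries for 48 of 54 members (37.9% of all tested ORFs). The 6 exceptions were *UTP18*, *IMP4*, *NOP4*, *DBP3*, *DRS1* and *MAK5*.

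The comparison of genotypes asked whether loss of *DBP1* changed the footprints of these genes. By limma with Benjamini-Hochberg adjustment over all tested ORFs, 0 of 54 members were higher and 0 were lower at an adjusted p under 0.05 (0.0187% of all tested ORFs in each direction, 1 ORF each). At an unadjusted p under 0.05 there were also 0 in each direction (0.899% of all tested ORFs higher and 0.768% lower), and limma voom on the recovered reads passed 0 members and 1 ORF in all, *DBP1*. The median log2 fold change was 0.23 over the members and -0.03 over all tested ORFs. Of the 54 members 46 were above 0, against 2294 of all 5338 tested ORFs. Both values of the members rested on *dbp1Δ* replicate 1. Without *dbp1Δ* replicate 1 the median was -0.12 and 14 of 54 members were above 0. The list was chosen on the difference between the *dbp1Δ* libraries, so leaving out either of them does not free the values from that choice. The median was 0.68 when *dbp1Δ* replicate 2 was left out instead. Without *dbp1Δ* replicate 2, 6 members passed, *NOP1*, *NOP58*, *NSR1*, *RPF2*, *RLP7* and *RLP24*, all higher (4.08% of all tested ORFs passed as higher), in a fit that passed 518 ORFs in all and takes the lone *dbp1Δ* library to vary like the wild-type pair. The members were chosen for higher values in *dbp1Δ* replicate 1 than in replicate 2, so these calls describe the choice and are no test of the genotype. With 2 libraries against 2, an exact two-sided permutation test of a single gene cannot give a p below 0.333, so none was made.

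The members with the largest log2 fold changes were *NSR1* at 1.20 (standard error 0.76), *DHR2* at 0.83 (standard error 0.50) and *BRX1* at 0.82 (standard error 0.48). Those with the smallest were *UTP6* at -0.38 (standard error 0.44), *NOP4* at -0.20 (standard error 0.19) and *MAK5* at -0.18 (standard error 0.29). In all 6 the genotypes overlapped. Both *dbp1Δ* libraries lay above both wild-type libraries for 5 members (9.59% of all tested ORFs) and below them for 0 (15.3%). The share above was 9.26% of the members, near that of all tested ORFs. The 5, named after their values were seen, were *GAR1*, *UTP21*, *ERB1*, *RPF2* and *ROK1*. *GAR1*, a box H/ACA core protein, was at 10.8 and 6.21 RPKM in the wild-type pair against 16.4 and 11.2 RPKM in the *dbp1Δ* pair. *ROK1* (YGL171W), a DEAD-box helicase of small-subunit assembly, was at 9.93 and 11.7 RPKM in the wild-type pair against 16.9 and 13.4 RPKM in the *dbp1Δ* pair. *RPF2* (YKR081C), a Brix protein, was at 6.39 and 6.66 RPKM in the wild-type pair against 13.6 and 7.43 RPKM in the *dbp1Δ* pair. Their log2 fold changes were 0.69 (standard error 0.32), 0.47 (standard error 0.23) and 0.59 (standard error 0.32), and none passed the test.

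Other genes of the pathway, which are not members, were also mostly higher in *dbp1Δ* replicate 1. Of 47 tested small-subunit assembly factors outside the list, 42 had more footprints in *dbp1Δ* replicate 1 than in replicate 2 (median log2 ratio 0.71). Of 57 large-subunit factors 51 did (median 0.70), against 54.4% of all tested ORFs. Both lists were low, with a median wild-type mean of 5.87 and 6.45 RPKM. All tested ORFs from 3 to 10 RPKM in wild type had a median ratio of 0.31, with 632 of 854 higher in *dbp1Δ* replicate 1. The largest ratios on these lists were those of *MRT4* and *MAK16*, large-subunit factors, and of *EMG1* and *SAS10*, small-subunit factors. *MRT4*, a relative of the ribosomal stalk protein, was at 1.74 and 5.32 RPKM in the wild-type pair against 10.9 and 1.85 RPKM in the *dbp1Δ* pair. *EMG1*, an rRNA methyltransferase, was at 1.62 and 4.03 RPKM in the wild-type pair against 5.68 and 0.863 RPKM in the *dbp1Δ* pair. *MAK16* was at 0.658 and 3.02 RPKM in the wild-type pair against 7.22 and 1.64 RPKM in the *dbp1Δ* pair and *SAS10* at 4.92 and 4.66 RPKM in the wild-type pair against 5.77 and 1.48 RPKM in the *dbp1Δ* pair. In each, *dbp1Δ* replicate 1 was the highest library. At the other end were the late-acting kinase *RIO1* (-0.42 on the log2 scale), *FCF1* (-0.24), *RSA1* (-0.54) and *BUD20* (-0.44), all above 20 RPKM in wild type. Their wild-type pairs also had replicate 2 above replicate 1, for 38 of 47 small-subunit and 41 of 57 large-subunit factors. In the comparison of genotypes 0 of them passed the adjusted threshold in either direction, and at an unadjusted p under 0.05 by limma there were 1 small-subunit and 2 large-subunit factors, all higher in *dbp1Δ* (0.899% of all tested ORFs).

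RNA polymerase I, which transcribes the rRNA precursor, went with the assembly factors. Of its 13 tested subunits and factors 12 were higher in *dbp1Δ* replicate 1, with a median log2 ratio of 0.75 and the widest gap for *RPA12*, at 6.53 and 9.53 RPKM in the wild-type pair against 15.8 and 4.43 RPKM in the *dbp1Δ* pair, followed by *RPA34* (1.26 on the log2 scale). *RPA43* (-0.21) and *RRN9* (0.27) were at the low end. RNA polymerase III makes transfer RNA and shares some subunits with polymerase I. It was higher in *dbp1Δ* replicate 1 for 11 of 12 genes, with a median of 0.29. The ratios ran from -0.45 for *RPC34* and 0.01 for *RPC37* to 1.11 for *RPC19*, one of the shared subunits, and 1.20 for *RPC17*. The median wild-type mean was 8.03 RPKM for the polymerase I genes and 10.9 RPKM for the polymerase III genes. All tested ORFs had a median ratio of 0.31 from 3 to 10 RPKM (632 of 854 higher) and 0.14 from 10 to 30 RPKM (874 of 1415 higher). The polymerase III median lay between these 2 values. The cytosolic ribosomal proteins, which these factors assemble into subunits, were taken by symbol, and the 134 tested genes include *RPP1*, a subunit of RNase P and not a ribosomal protein. Their median was 0.07 (0.06 without *RPP1*), close to that of all tested ORFs, with 80 of 134 higher in *dbp1Δ* replicate 1. In the wild-type pair their median log2 ratio of replicate 2 to replicate 1 was 0.15, with 92 of 134 higher in replicate 2, on the same side as the biogenesis factors. Their summed RPKM was 8537 and 9308 in wild type and 8842 and 8781 in *dbp1Δ*. Among them *RPL35B* (2.05) and *RPS9B* (0.80) were highest and *RPS22A* (-0.63) and *RPS10B* (-0.62) lowest. These 4 come from gene pairs with near-identical copies, so their own levels are uncertain. The 15 regulators of growth genes had a median of 0.10, from -0.44 for the repressor *DOT6* and -0.33 for the kinase *RIM15* to 0.70 for the kinase *TOR1* and 1.14 for *IFH1*, a coactivator of ribosomal protein genes. Between genotypes, 0 genes of these lists passed limma's adjusted threshold. At an unadjusted p under 0.05 there were 0 polymerase I genes, 1 polymerase III gene, lower in *dbp1Δ*, 5 ribosomal protein genes, 2 higher and 3 lower, and 1 regulator, lower, where 0.899% of all tested ORFs were higher and 0.768% lower.

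Markers of meiotic stage moved with the difference between the *dbp1Δ* libraries. All 14 early markers had higher values in *dbp1Δ* replicate 1 than in replicate 2. The median log2 ratio was 0.78, equal to that of the biogenesis factors. Their summed level was 5415 and 5062 RPKM in wild type and 6633 and 4484 RPKM in *dbp1Δ*. The widest gaps were in *IME1*, the master regulator of entry into meiosis, at 696 and 614 RPKM in the wild-type pair against 1078 and 525 RPKM in the *dbp1Δ* pair, and *SPO11*, which makes the DNA breaks of recombination, at 86.0 and 64.9 RPKM in the wild-type pair against 110 and 54.8 RPKM in the *dbp1Δ* pair. *SAE3* (0.44) and the kinase *IME2* (0.10) had the smallest. Of the 14 markers of middle meiosis, 10 were lower in *dbp1Δ* replicate 1, with a median of -0.22, and their summed level was 39845 and 40445 RPKM in wild type and 36925 and 40629 RPKM in *dbp1Δ*. *DON1* (-0.51) and *SPO20* (-0.42), both of spore membrane formation, were lowest, and *CDC5* (0.17) and *AMA1* (0.70) highest. Between the wild-type libraries the early markers went the other way from the biogenesis factors. Only 2 of 14 were higher in wild-type replicate 2, with a median log2 ratio of -0.15, where 43 of 54 biogenesis factors were higher there. The part of meiotic stage in the values of the biogenesis factors was not tested.

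**Figure D4:**
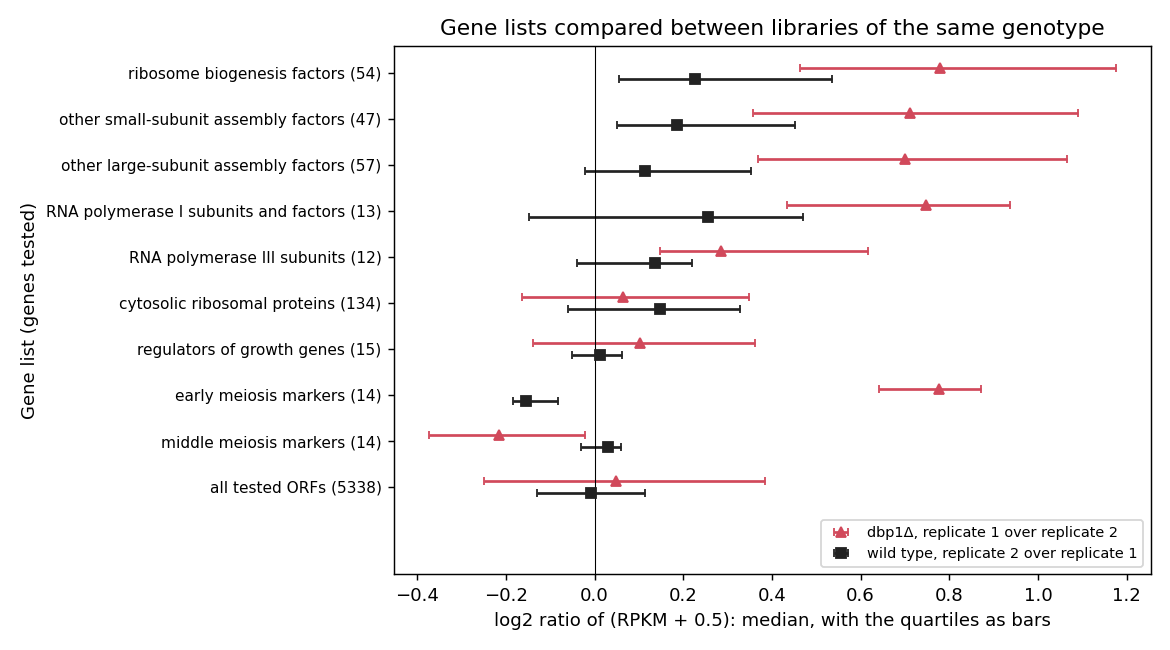
Median log2 ratio of (RPKM + 0.5) for each gene list, with bars from the lower to the upper quartile of its genes, between the *dbp1Δ* libraries (red triangles) and between the wild-type libraries (black squares). Assembly factors, RNA polymerase I and early meiosis markers lie between 0.70 and 0.78 in the *dbp1Δ* pair and ribosomal proteins at 0.07. In the wild-type pair ribosomal proteins lie at 0.15, on the side of the assembly factors, and the early markers at -0.15.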

How the data were processed

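Reads had been aligned with Bowtie2 (version not given in the sources used here) to the SK1 genome. The authors deposited RPKM values, which are raw footprint reads per ORF divided by mapped reads and ORF length, per library, without pooling or scaling between libraries. Which annotation was used, and whether ORFs were filtered, is not given in the sources used here. The labels give 2 biological replicates per genotype.

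For this report log2(RPKM + 0.5) was fitted with limma 3.58.1 in R 4.3.3 (lmFit, eBayes with a trend), with genotype as the only term, for ORFs averaging 1 RPKM or more, and adjusted by Benjamini-Hochberg over all of them. Fold changes on this scale understate those of low ORFs. The fit was tested on simulated data with the same spread in every library. The real *dbp1Δ* libraries were further apart than the wild-type ones (median absolute log2 ratio 0.31 against 0.12 over all tested ORFs). That simulation does not cover this difference. Steps of the RPKM values gave whole reads for 87.8% of values (within 0.02 of a whole read, ORF length less 60 nt). The reads of the 8 members that did not come out whole are approximate, and so are their intervals, which were left out of the counts of members. Symbols are from RefSeq's S288C R64 annotation, and all 55 members matched. Other steps ran in Python 3.11.15 with pandas 2.3.3, numpy 2.4.6, matplotlib 3.10.9 and scipy 1.17.1.

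The members, role groups, gene lists and tests were chosen with earlier results of these data known. In each role group the member highest in wild type and those with the largest and smallest ratio of the *dbp1Δ* libraries are given in full, with any that ran against its group, the 3 largest and 3 smallest fold changes, and from each other list the 2 largest and 2 smallest ratios. Alternatives were a pseudocount of 0.1 or 1, quantile normalization, median centring, a filter at 10 RPKM or none, no trend in eBayes, a replicate block, limma voom on recovered reads and leaving out each library. A planned count of promoter motifs was not run.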

Additional observations from a re-analysis of the deposited data

How the results depend on the processing

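With 1 *dbp1Δ* library setting most values, leaving libraries out mattered most. The count of members passing limma's adjusted threshold ranged from 0 to 6 and the median log2 fold change between genotypes from -0.12 to 0.68 when each library was left out, the lone library being taken to vary like the other genotype. Without *dbp1Δ* replicate 1 the median was -0.12, and the 6 calls came without *dbp1Δ* replicate 2. The median log2 ratio to wild type ranged from 0.48 to 0.82 for *dbp1Δ* replicate 1 and from -0.32 to 0.00 for *dbp1Δ* replicate 2 when a wild-type library was left out; for *dbp1Δ* replicate 2 it was 0.0025, on the other side of 0, without wild-type replicate 2. Quantile normalization lowered the median ratio of the *dbp1Δ* libraries to 0.54 and that of *dbp1Δ* replicate 1 to wild type to 0.52. A mean of at least 10 RPKM, which leaves 17 members, gave 0.32 and 0.34, with 12 of the 17 highest in *dbp1Δ* replicate 1. All other alternatives left these 7 summary values within the spread of libraries or, for counts, within 1.5 times.

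The replicate numbers give no known pairing, and deviations of same-numbered libraries had a correlation of -0.14. With the replicate block, 0 members passed and the median fold change stayed at 0.23, while 25 ORFs passed in all. With the crossed pairing as a block, chosen after seeing the data, 0 members and 28 ORFs passed. Depth limits the lowest members, 18 of which had under 20 reads in some library.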
